A study of Mus musculus with 7 samples.

Results

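The mitochondrial ribosomal protein genes were followed in mouse oocytes that lack mitofusin 1 (*Mfn1*), a protein of the outer mitochondrial membrane that joins mitochondria. Members were chosen by symbol alone, as genes named *Mrpl* or *Mrps* followed by a number and at most 1 letter, and 78 of the 22877 genes in the authors' table met that rule. Of these, 49 carry large-subunit symbols (*Mrpl*) and 29 small-subunit symbols (*Mrps*), and each of the 78 coding genes of such a name in the GENCODE M21 annotation has a row. RNA was sequenced from oocytes enclosed in secondary follicles of 8-week-old mice, in 4 WT and 3 *Mfn1*-/- libraries, each made from 5 pooled oocytes, and the labels thus hold more WT libraries than the paper's text describes. The *Mfn1*-/- mice carried *Mfn1* fl/fl alleles and Zp3-Cre, a Cre recombinase driven by the promoter of a zona pellucida gene, which acts in oocytes once follicles have begun to grow. The controls were WT littermates, the strain was C57BL/6J for both genotypes, and whether the controls carried a floxed allele or Cre is not given in the sources used here. Polyadenylated RNA was copied to cDNA and amplified by the Smart-Seq2 method, so the number of oocytes, their RNA content and the amplification cannot be told apart in a library's signal.

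The values are the authors' means of normalized counts, 1 for WT and 1 for *Mfn1*-/- per gene. Without values for each library, replicate error, depth and tests cannot be given, and "higher" and "lower" below compare 2 means without saying that they differ beyond replicate error. The column of totals matched the sum of 3 *Mfn1*-/- and 4 WT libraries to within 1% in 100% of the genes. The log2 fold change is that of *Mfn1*-/- over WT after adding 0.1 to each mean, which understates the difference of genes with low values. *Mfn1* itself, on chromosome 3, had a mean of 0.0577 in *Mfn1*-/- and 0.616 in WT oocytes (log2 fold change -2.18). All 11 oocyte markers checked, such as *Zp3* and *Gdf9*, had rows, which summed to 2013 for *Mfn1*-/- and 1778 for WT. The 12 granulosa cell markers with a row summed to 3.24 and 3.53, and 10 of them were under a mean of 1. The receptor gene *Fshr* was close to the lowest value of the table (0.016 and 0.0171). Those above a mean of 1 differed in opposite directions, *Inha* at 1.87 in *Mfn1*-/- and 0.954 in WT, and *Esr2* at 0.929 and 1.86. The 5 theca cell markers summed to 0.586 and 0.436. Of 6 blood cell markers 1 had a row, the macrophage gene *Cd68*, at 7.58 in *Mfn1*-/- and 0.672 in WT, and its part in the results below was not tested.

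Mitochondria have ribosomes of their own, which translate the few messages of the mitochondrial genome, all of them for subunits of the respiratory chain and of ATP synthase. The RNA of these ribosomes comes from the mitochondrial genome, whereas every protein of them is encoded in the nucleus, made in the cytosol and imported. Some of the proteins descend from those of bacterial ribosomes, and others were added during the evolution of mitochondria, in part in place of lost ribosomal RNA. Oocytes hold very large numbers of mitochondria, which the embryo inherits from the mother.

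Promoter sequences are shown for members that the results turn on: those with a higher mean in *Mfn1*-/- oocytes (*Mrpl20*, *Mrps26* and *Mrpl9*), those with a lower mean (*Mrps22* and *Mrps31*) and the member with the highest level (*Mrpl34*). *Mrps34*, which passed 2-fold as well, has no promoter window in RefSeq and is not shown. Each run is the 150 bases before the RefSeq transcript start on GRCm38.p6, written along the gene's strand, with matches to 4 motif cores in capitals: NRF1 (GCGCANGCG), ETS (CCGGAAG), YY1 (AAGATGGCG) and ZNF143 (ACTACANTT), on either strand. They are the cores of factors known from promoters of genes for mitochondrial proteins and of other broadly used genes. *Mrpl20* is at chr4:155802728-155802877 on the plus strand, and no core was found there. *Mrps26* is at chr2:130563607-130563756 on the plus strand and holds an ETS core on the opposite strand from position -14, which lies inside the longer GENCODE gene model starting at 130563742. *Mrpl9* is at chr3:94443186-94443335 on the plus strand and holds an NRF1 core readable on both strands, from -28 and -27. *Mrpl34* is at chr8:71464776-71464925 on the plus strand, with an ETS core from -37 and a ZNF143 core from -13. *Mrps22* is at chr9:98601680-98601829 on the minus strand, with a ZNF143 core from -49 and an ETS core from -11. *Mrps31* is at chr8:22411190-22411339 on the plus strand, and no core was found there.
Mrpl20: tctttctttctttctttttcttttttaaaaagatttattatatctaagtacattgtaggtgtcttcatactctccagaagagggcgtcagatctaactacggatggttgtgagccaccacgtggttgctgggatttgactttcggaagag
Mrps26: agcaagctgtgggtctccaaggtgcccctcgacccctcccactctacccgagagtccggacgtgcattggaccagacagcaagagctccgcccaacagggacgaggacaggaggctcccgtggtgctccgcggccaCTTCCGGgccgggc
Mrpl9: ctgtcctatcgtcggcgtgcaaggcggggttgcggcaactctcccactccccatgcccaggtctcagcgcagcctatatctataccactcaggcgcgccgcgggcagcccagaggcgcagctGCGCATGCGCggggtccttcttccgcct
Mrpl34: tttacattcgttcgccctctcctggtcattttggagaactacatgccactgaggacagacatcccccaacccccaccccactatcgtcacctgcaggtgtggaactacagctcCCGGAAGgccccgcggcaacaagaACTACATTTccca
Mrps22: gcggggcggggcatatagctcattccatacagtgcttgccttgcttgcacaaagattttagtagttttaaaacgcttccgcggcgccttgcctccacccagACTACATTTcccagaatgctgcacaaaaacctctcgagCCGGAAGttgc
Mrps31: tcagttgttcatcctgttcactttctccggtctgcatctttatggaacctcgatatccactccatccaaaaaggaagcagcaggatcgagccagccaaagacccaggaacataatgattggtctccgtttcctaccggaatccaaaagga

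Most members had a slightly higher mean in *Mfn1*-/- than in WT oocytes, by about as much as other genes did. Of the 78 members, 59 were higher, 18 lower and 1 equal, while 56.7% of all 22877 genes were higher. With a mean of at least 1 over the libraries, 53 of 70 members and 65.4% of 6226 genes were higher. The median log2 fold change of the members was 0.18 (quartiles 0.01 and 0.39), beside 0.04 for all genes and 0.16 for genes with a mean of at least 1. Measured from that overall shift of 0.16, 45 members were higher and the median was 0.02. Against genes of like GC content, transcript length or level with a mean of at least 1, 41, 40 and 41 members were higher. The medians were 0.01, 0.01 and 0.02. The members stayed closer together than the genes at large. The SD across members was 0.30 on the log2 scale, beside 0.62 across genes with a mean of at least 1. Those genes had quartiles of -0.12 and 0.42, and extremes of -6.40 and 6.46 that widen their SD. They also had lower levels, with a median mean of 4.06 beside 11.5 for the members, and the SDs were not matched for level. This closeness was not particular to the members, since the SD was 0.26 across cytosolic ribosomal protein genes and 0.35 across complex I genes. Genes are not replicates, and these SDs describe the spread between genes alone.

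Past a 2-fold difference there were 2 members higher in *Mfn1*-/- oocytes, *Mrpl20* and *Mrps34*, and 0 lower. The background was 4.89% of all genes higher and 2.76% lower, and 5.49% and 3.24% of genes with a mean of at least 1. Past 1.5-fold there were 7 members higher and 0 lower, where 15.5% and 7.71% of genes with a mean of at least 1 passed. The means of 71 members lay within 1.5-fold of each other, and those of 53 within 1.25-fold. Summed over members, the means came to 1515 for *Mfn1*-/- and 1323 for WT, which makes 1.14-fold, where all genes together gave 1.10. The members held 1.06% of the table's summed values in *Mfn1*-/- and 1.02% in WT oocytes.

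**Figure D1:**
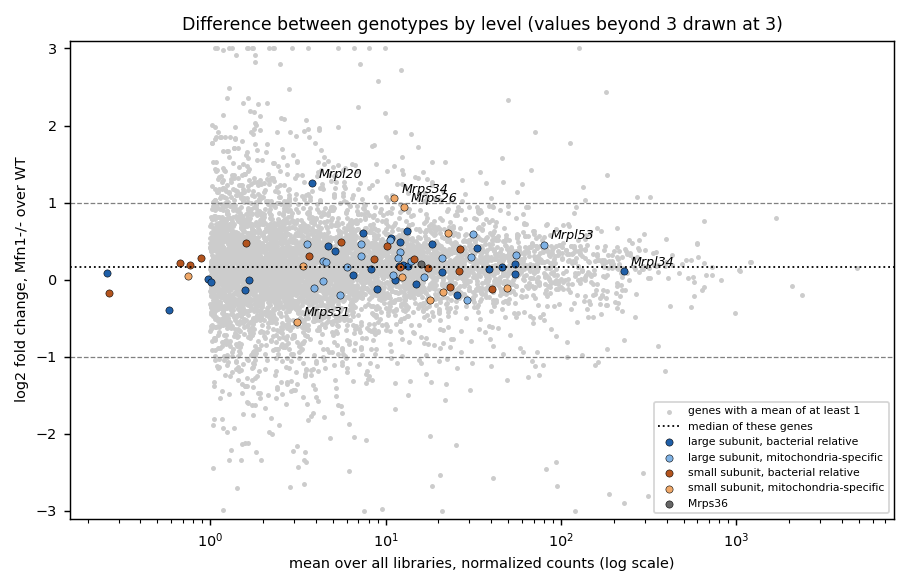
Log2 fold change of *Mfn1*-/- over WT (pseudocount 0.1) against the mean over all libraries on a log scale, for the 78 members coloured by subunit and origin and, in grey, 6226 genes with a mean of at least 1. The members lie in a band around the dotted median of 0.16, with *Mrpl20* and *Mrps34* above the dashed 2-fold line and none below the lower one.

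Levels differed 883-fold between the members, far more than between the genotypes, and the order of the members was much the same in both (Spearman correlation of 0.975 across 78 genes of the same 2 means, a description only). Low values over the table became smaller with exon length in the way a value per length does, although the sources do not name such a scaling, and the comparison of levels between genes rests on that reading. *Mrpl34*, a small and very basic protein of the large subunit, stood far above the others at 238 in *Mfn1*-/- and 221 in WT oocytes, and it made up 16.7% of the members' WT sum. *Mrpl53*, which sits at the base of the ribosome's stalk, came second at 94.4 and 69. *Mrpl41*, a protein specific to mitochondria, followed at 62.9 and 50.3. *Mrpl24*, near the exit of the tunnel that the new chain leaves by, was at 59.6 and 51.6. *Mrpl18*, which binds 5S rRNA in bacteria, was at 56.1 and 53.4. These 5 made up 33.7% of the members' WT sum, and all of them had higher means in *Mfn1*-/-, by log2 fold changes of 0.07 to 0.45, although measured from the overall shift *Mrpl34* (-0.05) and *Mrpl18* (-0.09) were lower.

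At the other end, 8 members had a mean under 1: *Mrpl23*, *Mrps9*, *Mrpl19*, *Mrps28*, *Mrps27*, *Mrps5*, *Mrps6* and *Mrpl1*. *Mrps9*, of the head of the small subunit, was at 0.24 in *Mfn1*-/- and 0.282 in WT oocytes, and *Mrpl19*, a protein of the subunit interface in bacteria, at 0.481 and 0.661. *Mrps27* was at 0.768 and 0.737, *Mrps5* at 0.826 and 0.714, *Mrps28* at 0.739 and 0.624, *Mrps6* at 0.99 and 0.799 and *Mrpl1* at 0.978 and 0.974. These genes span more annotated exon sequence, with a median of 4589 bases beside 2213.5 for the other members. Across the 78 members the mean was inversely related to exon length (Spearman -0.43, beside -0.30 across 6047 genes with a mean of at least 1). With the length of a representative transcript in its place, the relation was weaker in the members (-0.12) than in those genes (-0.32). If the values are per exon length, as read above, an inverse relation with exon length is built in. The longer exons of the members with low means are then no separate finding. What the ribosomes contained was not measured.

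**Figure D2:**
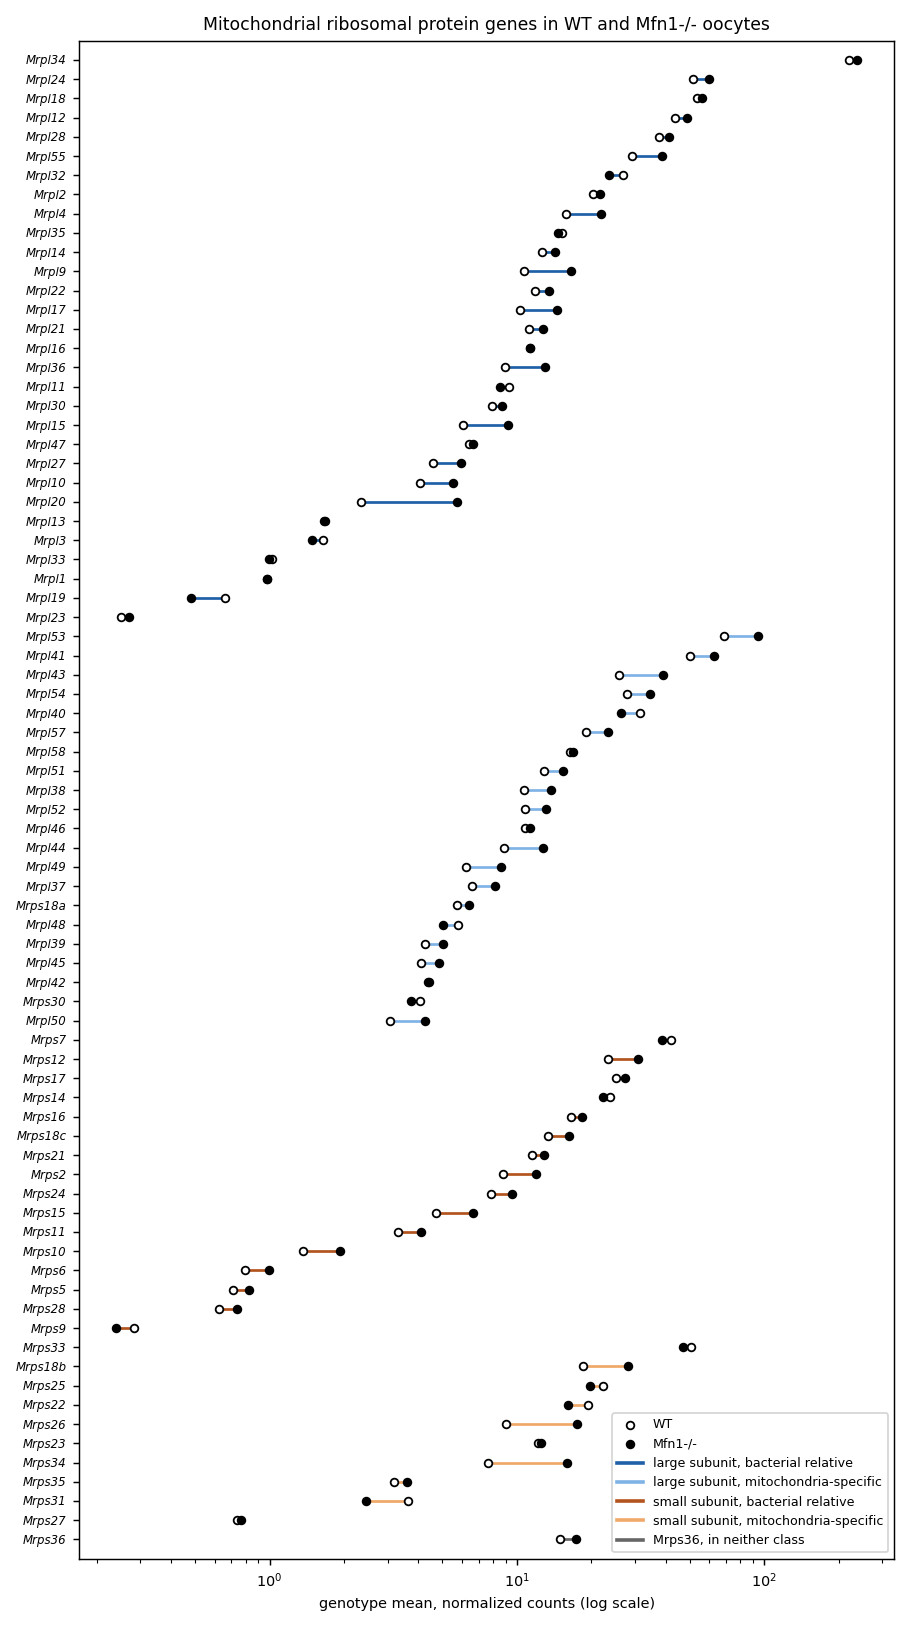
Genotype means of normalized counts on a log scale for each of the 78 members, open circles for WT and filled circles for *Mfn1*-/-, joined by a line coloured by subunit and origin. Levels run from about 0.25 for *Mrpl23* to over 200 for *Mrpl34*, and the distance between the 2 circles of a gene is small beside that range.

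*Mrpl20*, a protein that bacterial ribosomes need to assemble their large subunit, differed most, at 5.73 in *Mfn1*-/- and 2.35 in WT oocytes (log2 fold change 1.25). It shares no sequence with another gene at the length and identity searched (75 bases at 95%), overlaps no other gene's exons, and 96.9% of 2469 genes of like level had a lower log2 fold change. *Mrps34*, a mitochondria-specific protein of the small subunit that is needed for the stability of the 12S rRNA, was at 15.9 and 7.61 (1.05), above 96.6% of 1575 genes of like level. It overlaps exons of *Nme3* on the same strand, itself at 26.7 and 20.5, and reads in the shared part cannot be told apart without the counting rule. *Mrps26*, also specific to the mitochondrial small subunit, was just inside 2-fold at 17.5 and 9.06 (0.94).

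The members next in order were closer to the rest. *Mrpl9*, a long protein that reaches out from the large subunit in bacteria, was at 16.6 in *Mfn1*-/- and 10.7 in WT oocytes (0.63), and *Mrps18b* at 28.2 and 18.5 (0.61). *Mrpl15*, of the large subunit, was at 9.23 and 6.05 (0.60). *Mrpl43* was at 39.1 and 25.9 (0.59), and it overlaps on the opposite strand the exons of *Twnk*, the mitochondrial DNA helicase, which was lower at 2.55 and 4.30 (-0.73). The library kit does not mark strand, so reads from the shared part of such pairs cannot be told apart. *Mrpl36* was at 13 and 8.92 (0.54), beside *Ndufs6*, an opposite-strand neighbour with shared exon sequence, at 7.30 and 5.12. *Mrpl44*, a relative of RNase III, was at 12.7 and 8.89 (0.51), and *Mrpl17*, which lies near the exit of the tunnel in bacteria, at 14.5 and 10.3 (0.49).

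Members with a lower mean in *Mfn1*-/- oocytes lay close to WT. The lowest log2 fold change, that of *Mrps31*, a mitochondria-specific protein of the small subunit, was -0.54, from 2.45 for *Mfn1*-/- and 3.62 for WT, and 9.48% of the genes of like level lay below it. *Mrpl19* followed at -0.39, at a mean under 1. *Mrps22*, specific to mitochondria as well, was at 16.1 and 19.3 (-0.26), and *Mrpl40*, of the central protuberance, at 26.3 and 31.5 (-0.26). *Mrpl48* was at 5.02 and 5.80 (-0.20), *Mrpl32*, which is cut by a mitochondrial protease before it is assembled, at 23.5 and 26.9 (-0.19), and *Mrps25* at 19.8 and 22.2 (-0.16). Nearest to WT among the 10 lowest were *Mrpl3* at 1.49 and 1.65 (-0.14), *Mrps7* at 38.7 and 42.1 (-0.12), *Mrpl11* at 8.53 and 9.26 (-0.12) and *Mrps33* at 46.9 and 50.7 (-0.11). None of these passed 1.5-fold.

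By subunit, the members gave the same median. The 51 members known to sit in the large subunit, *Mrps30* and *Mrps18a* included, had a median log2 fold change of 0.18 with 39 higher, and the 26 of the small subunit 0.18 with 19 higher. Measured from the overall shift, 29 and 15 of them were higher. By origin, the 46 members with a bacterial relative had a median of 0.17 with 35 higher, and the 31 specific to mitochondria 0.24 with 23 higher. Within the large subunit the medians were 0.14 for 30 members with a bacterial relative and 0.28 for 21 specific to mitochondria, and within the small subunit 0.24 for 16 and 0.04 for 10. After centring, or against genes of like GC content, length or level, the medians by subunit and by origin all lay between -0.02 and 0.09. The small-subunit proteins specific to mitochondria were the most spread, with an SD of 0.53 on the log2 scale, since they hold both *Mrps34*, *Mrps26* and *Mrps18b* at the high end and *Mrps31*, *Mrps22* and *Mrps25* at the low end. *Mrps36*, at 17.3 and 15.0, was put in neither class because its product is known as a subunit of the 2-oxoglutarate dehydrogenase complex. *Mrps18a* and *Mrps18b* were kept with the proteins specific to mitochondria although both are copies of a bacterial type.

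The stalk of the large subunit, which recruits translation factors, had 3 of 4 members higher, and 3 measured from the overall shift, with a median of 0.30. *Mrpl12*, the stalk protein itself, was at 48.9 in *Mfn1*-/- and 43.6 in WT oocytes, *Mrpl10*, which anchors it, at 5.54 and 4.07, and *Mrpl53* and *Mrpl11* had the values above. Around the exit of the tunnel, where the inner membrane is reached, 5 of 5 members were higher, and 3 measured from the overall shift, with a median of 0.19. *Mrpl22* was at 13.5 and 11.8, *Mrpl45*, which tethers the ribosome to the inner membrane, at 4.84 and 4.09 and *Mrpl47* at 6.67 and 6.39, each within 1.25-fold. *Mrpl23* was at 0.27 and 0.25.

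The central protuberance, the crown of the large subunit, had 6 of 8 members higher, and 4 measured from the overall shift, with a median of 0.17. Its highest log2 fold changes were those of *Mrpl55* at 38.6 in *Mfn1*-/- and 29.1 in WT oocytes (0.41), *Mrpl27* at 5.96 and 4.57 (0.38) and *Mrpl38* at 13.8 and 10.7 (0.36). *Mrpl52* was at 13.1 and 10.8, *Mrpl46* at 11.3 and 10.8, and the lower members were *Mrpl40* and *Mrpl48*. The platform of the small subunit, near the path of the message, had 4 of 4 members higher, by either measure, and a median of 0.27. *Mrps11* was at 4.10 and 3.30, *Mrps21* at 12.9 and 11.5 and *Mrps18c* at 16.2 and 13.4.

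The mitochondrial ribosome has 3 proteins descended from a single bacterial protein, bS18, and they sit at different places in it. All 3 were higher in *Mfn1*-/- oocytes, by either measure, *Mrps18a* at 6.42 and 5.72, *Mrps18b* and *Mrps18c* as above. Together they came to 50.8 and 37.6. *Mrps18b* was the highest of the 3 in both genotypes and *Mrps18a*, which sits in the large subunit, the lowest. Of the mitoribosomal proteins that carry other symbols, 5 of 7 names had a row and the other two are older names of *Mrpl58* and *Mrpl57*. Of the 5, 3 were higher (1 measured from the overall shift), none passed 2-fold, and the extremes were *Chchd1* at 57.5 and 43.5 (0.40) and *Gadd45gip1* at 72 and 91.5 (-0.35).

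Genes for the proteins that work with the ribosome gave similar values. Of 17 mitochondrial translation factors, 11 were higher (8 measured from the overall shift) and 0 passed 2-fold either way, with a median of 0.15. *Pdf*, which removes the formyl group from the first methionine, was at 0.135 in *Mfn1*-/- and 0.0176 in WT oocytes, just under the threshold on the log2 scale used (1.00). *Oxa1l*, which inserts new chains into the inner membrane, was at 4.30 and 2.29 (0.88). The lowest was *Mtrf1*, a release factor, at 0.718 and 1.18 (-0.65).

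Of 29 genes for the assembly of the ribosome and the modification of its RNA, 23 were higher (18 measured from the overall shift), with a median of 0.26, and 3 passed 2-fold, all higher in *Mfn1*-/- oocytes, where 4.89% of all genes passed in that direction. *Mrm2*, a methyltransferase of the 16S rRNA, was at 1.05 and 0.332 (1.41), and *Mrm1*, which methylates another site of it, at 0.649 and 0.200 (1.32). *Eral1*, a GTPase that binds the 12S rRNA, was at 3.42 and 1.31 (1.32). *Gtpbp10*, a GTPase of the large subunit's assembly, had the lowest log2 fold change at 0.165 and 0.285 (-0.54). Means under 1 over the libraries, as here for *Mrm2*, *Mrm1* and *Gtpbp10*, are the ones for which a ratio of means is least certain.

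Other genes whose products form large complexes had somewhat higher medians than the 0.18 of the members. The 88 cytosolic ribosomal protein genes had 73 higher, or 65 measured from the overall shift, with 1 past 2-fold each way and a median log2 fold change of 0.27, with an SD of 0.26 across genes. The 47 complex I genes had 40 higher, or 32 measured from that shift, with 1 past 2-fold higher, 0 lower and a median of 0.26. The ratio of the sums was 1.28 for the cytosolic ribosome and 1.17 for complex I, beside 1.14 for the mitochondrial ribosome. No test between these families was possible without library values.

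**Figure D3:**
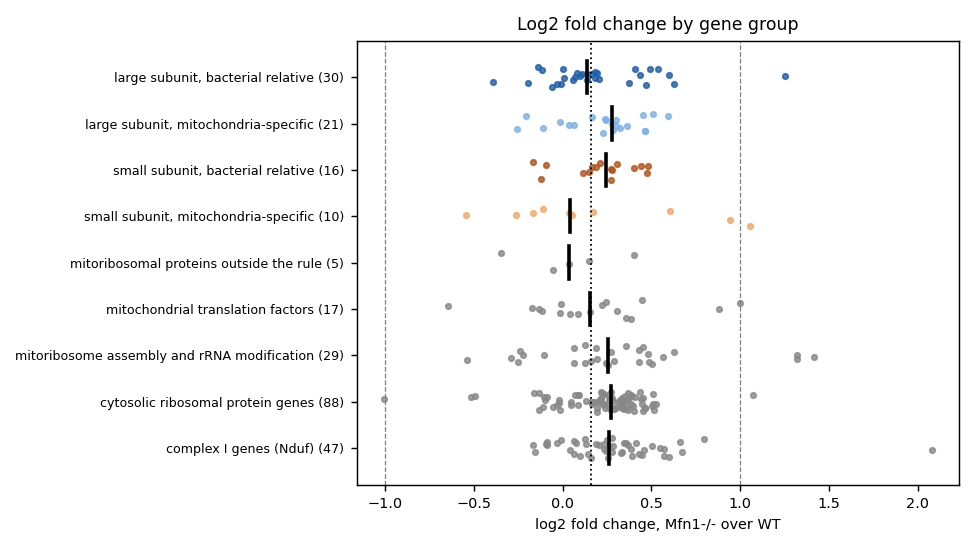
Log2 fold change of *Mfn1*-/- over WT (pseudocount 0.1) for each gene of the groups named at the left, with the number of genes in brackets and the median as a black bar. The medians of the groups lie between 0.04 and 0.28, around the dotted median of 0.16 of genes with a mean of at least 1, and few points pass the dashed 2-fold lines.

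The log2 fold change differed with GC content and transcript length, in the members and in the genes set beside them. Across the 78 members the log2 fold change was correlated with GC content (Spearman 0.35) and inversely with transcript length (-0.22), beside 0.29 and -0.17 across 6047 genes with a mean of at least 1. The 12 members under 45% GC had a median of -0.03, beside -0.01 for genes of that class, and the 26 between 45 and 50% had 0.14 beside 0.13. The 23 members between 50 and 55% had 0.38 beside 0.22, and the 17 above it 0.27 beside 0.31. By transcript length, the 25 members under 1000 bases had a median of 0.27 beside 0.25, the 28 from 1000 to 2000 bases 0.15 beside 0.20, and the 16 from 2000 to 4000 bases 0.05 beside 0.12. The 9 members above 4000 bases went the other way, with 0.17 beside -0.02 for the genes of that length. *Mrps34*, at 60.6% GC, dropped below 2-fold with a log2 fold change of 0.70 against genes of like GC content, and *Mrpl20*, at 52.5%, was at 1.02. The part of amplification or sequencing in these relations was not tested.

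Many members overlap or share sequence with other genes over at least part of their length, and how much of their counts this touches was not measured. Exons of 33 members overlap those of another gene, 28 on the opposite and 8 on the same strand, and 46 members share at least 75 bases at 95% identity or more with another gene, while 28 do neither. The median log2 fold change was 0.17 in the 45 members without such an overlap and 0.22 in the 32 without shared sequence. Processed pseudogenes, which are copies of the mature message put back into the genome, are the nearest of these relatives. For 15 members, 18 annotated pseudogenes with a row in the table matched at 95% identity or more over at least 50% of their length, and 10 of the 18 had a higher WT mean than their parent gene. How reads that fit both places were shared out is not given in the sources used here.

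*Mrpl23* is the clearest case. *Mrpl23-ps1*, on chromosome 2 at 74591330 to 74591909, is identical to it over 540 bases and was at 91.1 in *Mfn1*-/- and 77 in WT oocytes, 308 times the parent's WT mean. Weighted by length, the pseudogene held 97.3% of the pair's WT signal, so the low value of *Mrpl23* is a value of the gene model and not of all its copies. *Mrpl48-ps*, 98.1% identical to *Mrpl48*, was at 163 and 192, and was lower in *Mfn1*-/- as its parent was. *Mrps36-ps1* and *Mrps36-ps2* were at 85.4 and 64.1 and at 105 and 64.1, both above *Mrps36*. *Gm5776*, 99.7% identical to *Mrps33*, was at 172 and 137, higher in *Mfn1*-/- where *Mrps33* was lower. *Gm13552*, 99.8% identical to part of *Mrps18b*, was at 46.6 and 28.1, in the same direction as its parent.

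Over the 18 pseudogenes, 14 were higher in *Mfn1*-/- oocytes (10 measured from the overall shift), where 56.7% of all genes were higher, 14 differed in the direction of their parent, 1 was past 2-fold higher and 2 past 2-fold lower. Over all genes 4.89% and 2.76% passed. The one past 2-fold higher was *Gm9063*, a copy of *Mrps26*, at 1.75 and 0.718. Those past 2-fold lower were *Gm6578*, a copy of *Mrpl32*, at 0.195 and 0.771, and *Gm12244*, a copy of *Mrps16*, which was listed at the table's lowest mean of 0.01 in *Mfn1*-/- and at 0.367 in WT. Together the 18 came to 758 for *Mfn1*-/- and 645 for WT. When each member was joined with its pseudogenes by length, 61 members were higher and the median log2 fold change was 0.19, beside 59 and 0.18 for the members alone.

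**Figure D4:**
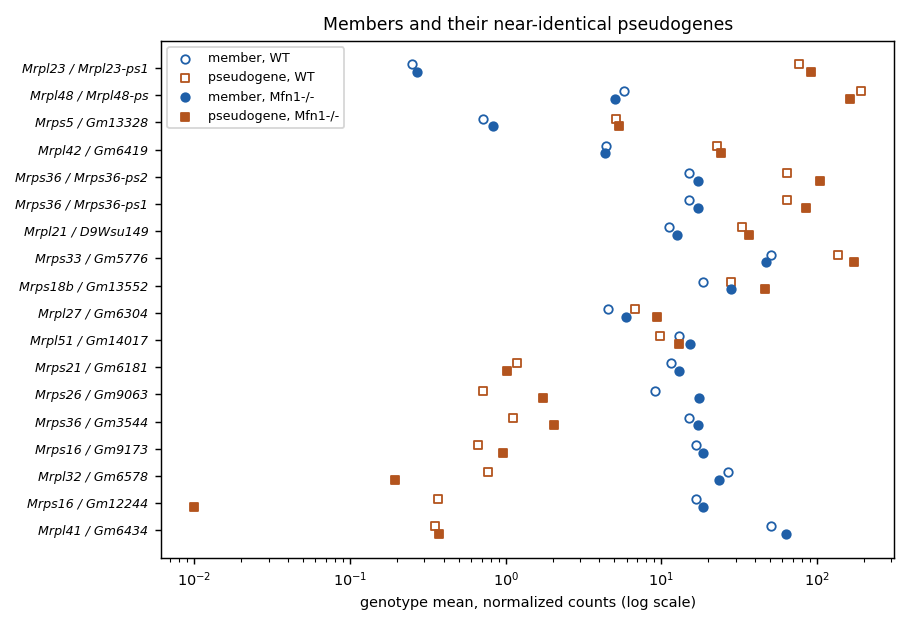
Genotype means of normalized counts on a log scale for 15 members (blue circles) and their 18 near-identical pseudogenes (orange squares), open for WT and filled for *Mfn1*-/-, ordered by the ratio of pseudogene to parent in WT. In the 10 pairs at the top the pseudogene lies above its parent, and among these *Mrpl23* and *Mrpl48* show the widest gaps.

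Members often stand head to head with another gene. A coding gene on the opposite strand started at or within 1000 bases before the start of 18 members, or 23.1%, beside 8.87% of 15598 coding genes. The share among genes of like level or in other families was not taken, so this does not show a trait particular to the members. Pairs that overlap at their starts, such as *Mrps11* and *Mrpl46*, were not counted, in the members or in the coding genes. None of the 18 partners passed 2-fold on the log2 scale used, where 4.89% of all genes passed it higher and 2.76% lower. *Klc4*, beside *Mrpl2*, was at 0.407 in *Mfn1*-/- and 0.168 in WT oocytes (0.92). *Lrrc46*, beside *Mrpl10*, was at 0.0717 and 0.169 (-0.65). Both pass 2-fold as plain ratios, without the pseudocount. *Hira*, *Pnpla7*, *Zfp189* and *Ncapd2* were under 0.1 in both genotypes, where the pseudocount leaves little room to pass. The median log2 fold change of the partners was 0.13. Of the 18, 11 differed in the direction of their member, which is uncertain for such low values. Over all genes 56.7% were higher, and whether partners share a direction more often than unrelated genes was not tested. *Mrps34* and its partner *Eme2*, a subunit of a DNA endonuclease, start 29 bases apart, and *Eme2* was at 1.62 in *Mfn1*-/- and 0.90 in WT oocytes (0.78). *Mrps12*, at 30.9 and 23.4, shares its start region with *Sars2*, the seryl-tRNA synthetase of mitochondria, which was at 1.30 and 0.812 (0.62). *Mrpl32* was lower while its partner *Psma2*, a proteasome subunit, was higher at 6.54 and 6.03. *Mrpl49*, at 8.64 and 6.24, starts 59 bases from *Fau*, which encodes a cytosolic ribosomal protein and was at 22.2 and 17.3.

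The promoters printed above belong to a set of 75 windows of 300 bases, 250 before and 50 after the start, that RefSeq gives for 69 of the 78 members. Of these windows 34.7% hold the ETS core (CCGGAAG), 21.3% the NRF1 core (GCGCANGCG) and 10.7% the YY1 core (AAGATGGCG), on either strand. Over all 32851 windows the shares were 8.86%, 6.25% and 1.40%, and over 4700 windows of genes with a mean of at least 1 they were 23.2%, 16.5% and 3.74%. At least 1 of these 3 cores was found in 56% of member windows, 54.1% of cytosolic ribosomal protein windows and 50% of complex I windows, beside 37.8% for genes with a mean of at least 1 and 14.8% for all. The mix differed between the families, with ETS cores in 36.5% and NRF1 cores in 13.5% of the cytosolic ribosomal protein windows, against 14.3% and 26.2% of those of complex I. The ZNF143 core (ACTACANTT) was found in the windows of 3 members, *Mrpl34*, *Mrpl50* and *Mrps22*, or 4%, beside 2.43% of windows of genes with a mean of at least 1. It was searched only after some of the sequences had been read. No match to one of the motifs overlapped a match to another in a member's window.

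Members with and without these cores are set side by side here, with no test of the difference. The 42 members with at least 1 of the ETS, NRF1 and YY1 cores had a median log2 fold change of 0.19 and the 27 without had 0.12. By core, the medians with and without were 0.23 (16 members) and 0.14 (53) for NRF1, 0.17 (26) and 0.18 (43) for ETS, and 0.22 (8) and 0.18 (61) for YY1. For the ZNF143 core they were 0.11 (3) and 0.18 (66). Among members with a window, which leaves out *Mrps34*, those that differed most include both kinds. The printed promoter of *Mrpl20* has no core, and those of *Mrps26* and *Mrpl9* have an ETS and an NRF1 core. A match to these letters does not say that a factor is bound there, and no match says only that the letters are not in the window.

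**Figure D5:**
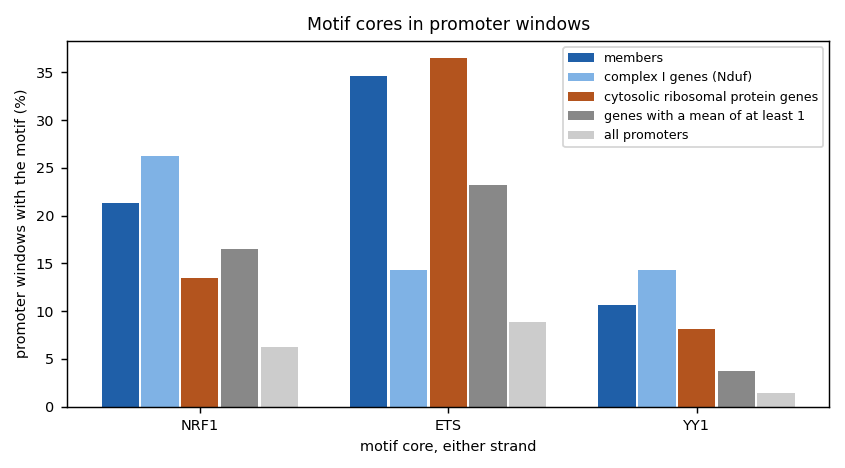
Percent of 300-base promoter windows that hold the NRF1, ETS or YY1 core on either strand, for the members, complex I genes, cytosolic ribosomal protein genes, genes with a mean of at least 1 and all promoters. Each of the 3 cores is in a larger share of member windows than of all windows, and ETS is the most frequent in the members at 34.7%.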

How the data were processed

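Reads were trimmed, filtered, aligned with STAR to GRCm38/mm10 and counted per gene by the authors, and how they normalized the counts is not given in the sources used here. The signal in the deposited table is, for each gene, the authors' genotype means of normalized counts plus a total. The smallest mean is 0.01. The deposited table also holds the authors' p-value and its FDR for each gene, which were not used here. The deposited ratio of the means and the signed fold change, a score by the authors, were not used either. There were 0 columns of single libraries left unused.

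The groups (4 WT, 3 *Mfn1*-/-) were taken from the sample titles, which name 1 WT library more than the paper's text, and the table's totals fit all 7. Log2 fold changes were computed with a pseudocount of 0.1, and genes were called by a fold of 2 or 1.5 alone. GENCODE M21 gave positions, lengths and GC content, RefSeq (GRCm38.p6) gave promoters, and transcripts were compared with blastn 2.17.0 (at least 75 bases at 95% identity). Adjustment for GC content, transcript length or level subtracted the median of genes with a mean of at least 1 in the same of 20 bins. Members with a mean under 1 thus had no genes of their own level to be set against. Pseudocounts of 0.01 and 1, no pseudocount, minimum means of 0.1 and 1, centring, and leaving out members with an overlap, shared sequence or a pseudogene were tried as alternatives. The code was tested on simulated data.

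The genes named are the members past 2-fold, the 10 highest and 10 lowest log2 fold changes among members with a mean of at least 1, the 5 highest means, members with a mean under 1, the members of the structural groups, *Mfn1*, and of other lists those past 2-fold and the extremes. Of the marker lists, *Zp3*, *Gdf9*, *Fshr* and *Cd68* were named only as examples of the list. *Inha* and *Esr2* were named as the granulosa cell markers above a mean of 1, after their values were seen. Overlapping genes, pseudogenes and head-to-head partners, and *Mrps12*, *Mrps16*, *Mrps36*, *Mrpl49*, *Mrpl50*, *Mrpl57*, *Mrpl58* and *Mrps30*, were named after their values were seen. Members, lists and motifs were chosen with earlier results of these data known. Python 3.11.15, numpy 2.4.6, pandas 2.3.3 and matplotlib 3.10.9 were used.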

Additional observations from a re-analysis of the deposited data

How the results depend on the processing

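No member past 2-fold changed sign, and 0 members passed 2-fold lower under any of the alternatives run. The median log2 fold change of the members was 0.024 after centring on genes with a mean of at least 1, 0.014 against genes of like GC content, 0.0087 against like transcript length and 0.015 against like level. For the large subunit these medians were 0.022, -0.0027, -0.021 and 0.012, and for the small subunit 0.020, 0.026, 0.073 and 0.062. For members with a bacterial relative they were 0.013, 0.0071, -0.010 and -0.012, and for those specific to mitochondria 0.078, 0.014, 0.093 and 0.083. Past 2-fold higher there was 1 member with a pseudocount of 1, after centring, against like GC content, length or level, and without members that share sequence with or overlap another gene, and there were 7 at a fold of 1.5. Without members that share sequence, 26 of 32 were higher, and without members that overlap another gene, 34 of 45. *Mrpl20* kept log2 fold changes of 1.01 to 1.29 over its alternatives, *Mrps34* ran from 0.70 to 1.06, and *Mrpl34* changed sign, running from -0.21 to 0.11. No paired analysis was possible because the deposited table gives 1 mean per genotype and no values by replicate number, and for the same reason leaving out each library and a block on the replicate number were not run. Genes with means near the lowest value, several pseudogenes among them, give the least certain ratios, and depth per library is unknown.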
